A study of Mus musculus with 4 samples.

Results

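The simple epithelial keratins described here are 6 named genes, Krt7, Krt8, Krt18, Krt19, Krt20 and Krt23, taken by name from a table of 55335 gene rows. All 6 have a row. They were measured by SMART-Seq2 RNA-seq, which copies full-length RNA and amplifies it by PCR, in 4 libraries of mouse stomach corpus epithelium. The mice were C57BL/6 animals aged 6 to 8 weeks, and all of them carried the Iqgap3-2A-tdTomato reporter, in which the Iqgap3 locus also makes the red fluorescent protein tdTomato. Living cells with the epithelial surface protein EpCAM were sorted into a bright fraction (IQ3pos, labelled Iqgap3 high) and a dim or dark fraction (IQ3neg, labelled Iqgap3 low or negative). IQ3pos_1909A and IQ3neg_1909B each hold cells pooled from 3 mice, and IQ3pos_1910A and IQ3neg_1910B each hold cells pooled from 4 mice. The labels do not say whether libraries of the same number came from the same mice, and there is no library from mice without the reporter. The comparison asks how the keratin make-up of corpus cells with bright reporter differs from that of cells with dim or no reporter signal.

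Keratins are the intermediate filament proteins of epithelial cells. A filament needs an acidic type I keratin and a basic type II keratin in equal amounts, since the building block pairs one of each. Single-layered epithelia such as the stomach lining are built mainly on the pair of keratin 8 (type II, Krt8) and keratin 18 (type I, Krt18). Krt7 is a further type II keratin, known from ducts and other glandular epithelia. Krt19, Krt20 and Krt23 are type I keratins; keratin 19 is the smallest keratin and lacks most of the tail, and keratin 20 is known in human tissue from intestine and the gastric surface. The mouse type II genes lie together on chromosome 15, where Krt18 also sits beside Krt8, and the other type I genes lie together on chromosome 11.

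On the GRCm38 annotation, Krt7 (ENSMUSG00000023039.17) lies at chr15:101411043-101430313, Krt8 (ENSMUSG00000049382.10) at chr15:101996698-102004482 and Krt18 (ENSMUSG00000023043.7) at chr15:102028180-102032027. Krt8 and Krt18 point away from each other, with 23698 bases between their starts. On chromosome 11, Krt20 (ENSMUSG00000035775.2) lies at chr11:99428403-99438150, its neighbour Krt23 (ENSMUSG00000006777.7) at chr11:99477974-99493137 and Krt19 (ENSMUSG00000020911.14) at chr11:100140810-100148665. Promoter sequences from RefSeq (GRCm38.p6) were at hand for 5 of the 6 members. These 5 genes lie in the keratin clusters of chromosomes 15 and 11. The sequences are shown because the genes ranged from almost undetected to among the more abundant genes of the libraries. The RefSeq starts of Krt7, Krt8, Krt18 and Krt23 lie inside the annotated genes given above, that of Krt7 the farthest. Each line runs 5′ to 3′ along the gene, from 250 bases before the RefSeq start to 20 after it. Capitals mark matches on either strand to 4 short motifs. The first was the core promoter element of many tissue-specific genes, TATAAA. The second, bound by Sp family factors, was GGGCGG. The third was the site of the AP-1 family, TGANTCA. The fourth, bound by GATA factors, was AGATAA.
Krt7, chr15:101412153-101412422, forward strand: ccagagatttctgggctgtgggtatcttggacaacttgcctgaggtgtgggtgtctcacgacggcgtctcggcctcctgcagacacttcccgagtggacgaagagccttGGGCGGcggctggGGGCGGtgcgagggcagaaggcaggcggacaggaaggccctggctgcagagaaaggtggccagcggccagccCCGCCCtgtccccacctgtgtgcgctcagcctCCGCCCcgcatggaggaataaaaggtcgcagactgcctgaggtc
Krt8, chr15:102004323-102004592, reverse strand: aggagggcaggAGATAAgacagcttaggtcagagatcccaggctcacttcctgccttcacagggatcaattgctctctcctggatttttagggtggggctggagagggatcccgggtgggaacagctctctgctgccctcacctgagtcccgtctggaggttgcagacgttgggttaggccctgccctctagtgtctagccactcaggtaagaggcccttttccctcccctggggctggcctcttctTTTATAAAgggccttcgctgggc
Krt18, chr15:102027966-102028235, forward strand: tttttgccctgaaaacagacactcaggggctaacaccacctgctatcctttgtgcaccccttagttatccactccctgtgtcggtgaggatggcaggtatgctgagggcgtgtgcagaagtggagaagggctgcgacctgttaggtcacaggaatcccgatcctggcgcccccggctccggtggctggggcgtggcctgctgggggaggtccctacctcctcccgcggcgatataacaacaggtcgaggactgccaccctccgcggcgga
Krt20, chr11:99438134-99438403, reverse strand: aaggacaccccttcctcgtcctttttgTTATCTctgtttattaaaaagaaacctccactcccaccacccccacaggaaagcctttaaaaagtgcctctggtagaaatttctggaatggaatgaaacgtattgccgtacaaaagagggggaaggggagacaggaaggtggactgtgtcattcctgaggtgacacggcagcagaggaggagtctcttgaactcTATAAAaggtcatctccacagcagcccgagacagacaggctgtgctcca
Krt23, chr11:99493101-99493370, reverse strand: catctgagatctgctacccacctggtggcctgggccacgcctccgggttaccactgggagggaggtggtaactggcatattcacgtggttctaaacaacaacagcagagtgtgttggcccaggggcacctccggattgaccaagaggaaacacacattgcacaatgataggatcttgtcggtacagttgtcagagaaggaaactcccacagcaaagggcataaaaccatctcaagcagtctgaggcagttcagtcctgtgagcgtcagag

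The Krt7 window held 4 matches to the Sp motif and none to the others, and 34.1% of all 32851 promoter windows of this length hold that motif. Krt8 matched the first motif, on both strands at overlapping places that span the RefSeq start, and the GATA motif. Krt20 matched the same pair of motifs at other places. The first motif is found in 12.9% of the windows, the GATA motif in 10.5% and the AP-1 motif in 7.23%. The windows of Krt18 and Krt23 matched none of the 4 motifs. These matches describe the letters only and say nothing on which factors act there.

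The libraries were deep, with 90714929 to 418401262 reads in genes, so counting error was small for every member but Krt20 and, in IQ3pos_1909A, Krt7. The 20 most abundant genes were ranked by mean CPM over all 4 libraries, not within each library. They took 25.3% and 18.5% of reads in IQ3pos_1909A and IQ3pos_1910A, against 63.4% and 57.9% in IQ3neg_1909B and IQ3neg_1910B. Deposited values, in counts per 1000000 reads (CPM), are shares of a library. The median log2 difference of the 13019 tested genes was 0.68 on these values and 0.04 after TMM scaling, which corrects for unequal composition. Levels below are deposited CPM unless said otherwise. Differences, IQ3pos minus IQ3neg, are on the log2(TMM-scaled CPM + 1) scale with limma's moderated SE. Iqgap3 itself, the gene behind the sort, stood at 0.220 and 9.32 CPM in IQ3pos_1909A and IQ3pos_1910A, against 0.0435 and 0.452 CPM in IQ3neg_1909B and IQ3neg_1910B, so IQ3pos_1909A lay below IQ3neg_1910B. The epithelial markers Epcam and Cdh1 together stood at 740 and 733 CPM in IQ3pos and at 266 and 400 CPM in IQ3neg. On TMM-scaled CPM, Epcam held 375 and 383 in IQ3pos and 298 and 312 in IQ3neg. The difference was 0.31 for Epcam (limma adjusted p = 0.568) and 0.64 for Cdh1 (limma adjusted p = 0.468). Libraries are pools of mice, and part of the spread between these pools may be technical. The limma p-values rest on that spread after moderation towards the trend over all genes, with 3.90 prior and 2 residual degrees of freedom.

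Among the keratins, the fractions stood farthest apart at Krt7 and Krt19, and closer at the abundant pair Krt8 and Krt18. The log2 difference was -5.17 for Krt7 (SE 0.82) and 1.89 for Krt19 (SE 0.44), while Krt8, Krt18 and Krt23 lay within 0.49 of 0 and Krt20 was almost undetected. The filter of a mean of 1 CPM kept 5 members. With an adjusted p under 0.05 as the threshold, limma called 0 of the 5 higher and 0 lower, against 0.0461% of all tested genes higher and 0.184% lower. At an unadjusted p under 0.05, Krt19 was higher (background 7.63%) and Krt7 lower (background 8.32%). On TMM-scaled CPM, Krt19 was the only tested member with both IQ3pos libraries above both IQ3neg libraries (24.7% of all genes) and Krt7 the only tested member with both below (23.0%). The edgeR quasi-likelihood test on recovered reads called 0 members either, and 0.0535% of genes higher and 0.214% lower. Its unadjusted p was under 0.05 for Krt19 (background 5.29% higher) and Krt7 (background 10.8% lower). The DESeq2 Wald test called Krt19 higher and Krt7 lower, and 5.45% of all genes higher and 8.30% lower. On deposited CPM, 3 members lay above and Krt7 below in both libraries, as did 40.9% and 14.2% of all genes, and limma called 0.00% of genes. The median difference of the 5 tested members was 0.02, against 0.04 for all genes.

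**Figure D1:**
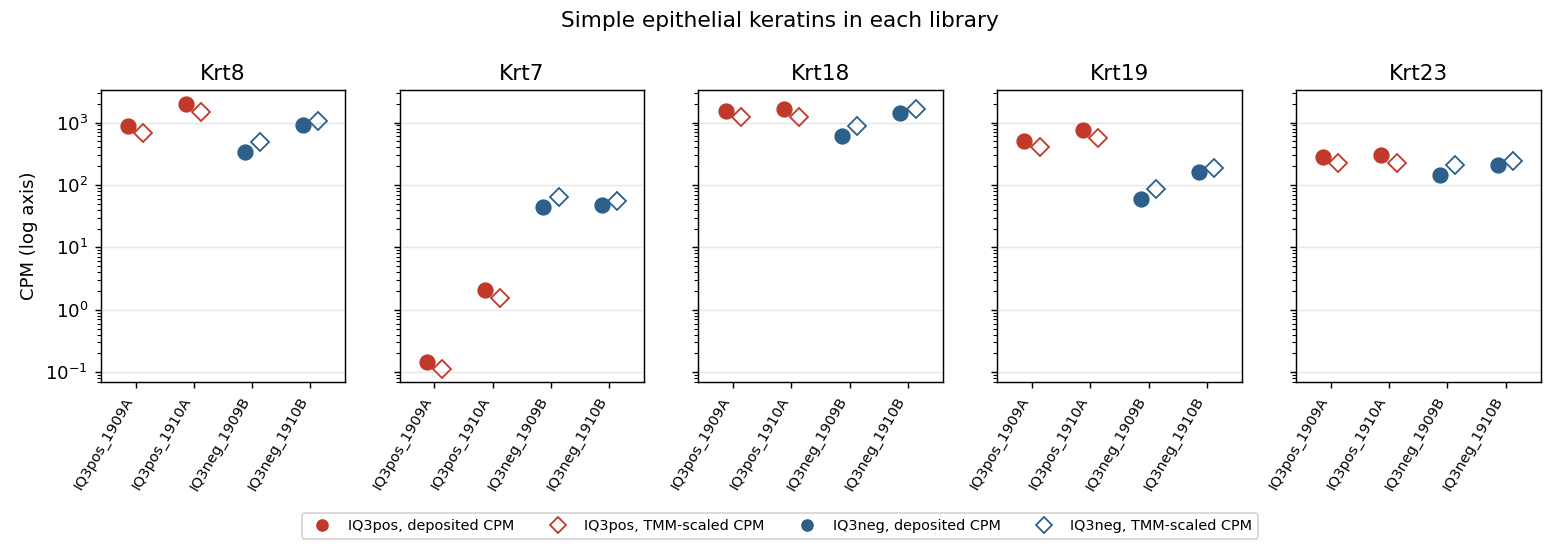
Level of the 5 detected keratins in each library, in CPM on a log axis; filled circles are deposited CPM, open diamonds TMM-scaled CPM, red IQ3pos and blue IQ3neg. Krt7 sits at 0.143 and 2.07 CPM in IQ3pos, far below 44.1 and 47.4 CPM in IQ3neg, and Krt19 sits higher in both IQ3pos libraries on either scale. Krt20, at 0.0220 CPM or less, is not drawn.

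The type II keratin Krt7 was close to absent from IQ3pos. It stood at 0.143 CPM in IQ3pos_1909A and 2.07 CPM in IQ3pos_1910A, against 44.1 CPM in IQ3neg_1909B and 47.4 CPM in IQ3neg_1910B. The groups were far apart, the IQ3neg libraries were alike, and the IQ3pos libraries differed from each other by more than 10 times. These levels rest on 13 and 579 reads in IQ3pos and on 5072 and 19819 reads in IQ3neg. The exact 95% Poisson interval of the lowest level was 0.0763 to 0.245 CPM, which covers counting error only. Taken within a library number on TMM-scaled CPM, Krt7 was 564-fold lower in IQ3pos among the 3-mouse pools and 36.1-fold lower among the 4-mouse pools. The difference of -5.17 had a 95% interval of -7.18 to -3.17 (limma unadjusted p = 0.000772, adjusted p = 0.0861), and on deposited CPM it was -4.64 (adjusted p = 0.0698). A difference as low as this or lower was found in 0.507% of tested genes. On deposited CPM, IQ3pos averaged 1.11 ± 1.37 and IQ3neg 45.7 ± 2.31 (SD over 2 libraries). An antisense gene that overlaps Krt7, Gm671, stood at 7.93 CPM in IQ3pos_1909A and at 0 in the other libraries, and whether counting used the strand is not given in the sources used here.

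The genes whose pattern over the 4 libraries came nearest to that of Krt7 were St18, a zinc finger transcription factor gene, and Try10, a trypsinogen gene. Their distances, taken between centred log2(TMM-scaled CPM + 1) values, were 0.598 and 0.643. St18 stood at 1.34 and 3.10 CPM in IQ3pos_1909A and IQ3pos_1910A, against 50.4 and 52.1 CPM in IQ3neg_1909B and IQ3neg_1910B. Of the 4574 named genes that averaged 20 CPM or more, 4 lay within a distance of 1 of Krt7. Most markers of hormone-secreting and zymogen-secreting cells moved in the same direction. Of the 5 enteroendocrine markers (Chga, Chgb, Sst, Ghrl, Hdc), 4 passed as lower in IQ3pos, and the 5 summed to 360 and 175 CPM in IQ3pos and to 16173 and 10178 CPM in IQ3neg. Of the 4 chief cell markers (Pgc, Cblif, Clps, Pga5), 2 passed as lower. The 4 summed to 45367 and 17899 CPM in IQ3pos and to 387063 and 359693 CPM in IQ3neg. Most of the IQ3neg sum was Clps, at 340995 and 277067 CPM, which did not pass (limma adjusted p = 0.0696). Pga5 differed little, by -0.16 with TMM scaling (limma adjusted p = 0.907). On deposited CPM its difference was 0.60, and it averaged 132 CPM in IQ3pos and 105 CPM in IQ3neg. Of the 5 tuft cell markers 0 passed and 2 were lower at an unadjusted p under 0.05, with sums of 554 and 130 CPM in IQ3pos and 369 and 1112 CPM in IQ3neg. Their part in the Krt7 difference was not tested. In these bulk samples, fewer cells of a type and less RNA per cell cannot be told apart. Mesothelial and squamous cells, also known for keratins, left little RNA. The mesothelial markers Msln, Upk3b, Lrrn4, Wt1 and Upk1b summed to 0.750 CPM or less in every library. The 8 squamous forestomach markers, among them Krt5, Krt14 and Trp63, summed to at most 1.20 CPM. The 7 pancreatic acinar markers, which overlap in part with the enzymes of gastric chief cells, summed to 67.8 and 184 CPM in IQ3pos and to 32.7 and 61.9 CPM in IQ3neg. Of the 4 that were tested, 0 passed, and 2 (Cela2a and Amy2b) were lower by the unadjusted p. Most of the sum was Cela1, with 125 ± 81.4 CPM for IQ3pos and 22.4 ± 27.8 CPM for IQ3neg (SD over 2 libraries), a difference of 2.44 (limma adjusted p = 0.353). Cpa1 stood at 0.0441 CPM or less.

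Krt19 was the only tested member that stood higher in both IQ3pos libraries on TMM-scaled CPM. Its deposited level was 503 CPM in IQ3pos_1909A and 768 CPM in IQ3pos_1910A, against 58.8 CPM in IQ3neg_1909B and 162 CPM in IQ3neg_1910B. Every IQ3pos value lay above every IQ3neg value, and in both fractions the 4-mouse pool was the higher. On TMM-scaled CPM, IQ3pos averaged 484 ± 120 and IQ3neg 138 ± 73.5 (SD over 2 libraries). Krt19 was 4.66-fold higher in IQ3pos among the 3-mouse pools and 3.00-fold higher among the 4-mouse pools. The difference of 1.89 had a 95% interval of 0.82 to 2.97 (limma unadjusted p = 0.00509, adjusted p = 0.173), and 5.07% of tested genes had a difference as high or higher. On deposited CPM, which carry the shift of all genes, the difference was 2.66 (adjusted p = 0.0737).

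The patterns nearest to Krt19 were those of Fam83d, a gene of the mitotic spindle, and Abraxas1, a gene of a DNA damage complex, at distances of 0.194 and 0.196. Fam83d stood at 30.2 and 54.3 CPM in IQ3pos_1909A and IQ3pos_1910A, against 3.74 and 10.4 CPM in IQ3neg_1909B and IQ3neg_1910B. A distance under 1 was common for this pattern, with 398 genes. Markers of surface pit cells (Muc5ac, Gkn1, Gkn2, Tff1) moved in the same direction: 3 of 4 passed as higher, and they summed to 9538 and 9754 CPM in IQ3pos and to 1015 and 1364 CPM in IQ3neg. The 3 genes of dividing cells (Mki67, Top2a, Ccnb1) summed to 628 and 1531 CPM in IQ3pos and to 62.4 and 113 CPM in IQ3neg, and 0 passed while 3 were higher at an unadjusted p under 0.05. The 2 mucous neck markers had opposite signs. Tff2 passed as higher, with a difference of 2.51. Muc6 did not pass, with a difference of -0.72 (limma adjusted p = 0.333), and both IQ3pos libraries lay below both IQ3neg libraries on TMM-scaled CPM. Together they summed, mostly through Tff2, to 4616 and 5900 CPM in IQ3pos and to 678 and 1152 CPM in IQ3neg. The 4 parietal markers (Atp4a, Atp4b, Slc26a7, Kcne2) summed to 4062 and 3029 CPM in IQ3pos and to 449 and 522 CPM in IQ3neg, and again 0 passed and 3 were higher by the unadjusted p. The part of these markers in the Krt19 difference was not tested.

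Krt8, the main type II keratin, differed more between the pools of a fraction than between fractions on TMM-scaled CPM, where it held 688 and 1490 in IQ3pos and 488 and 1065 in IQ3neg. Its deposited level was 866 CPM in IQ3pos_1909A and 2013 CPM in IQ3pos_1910A, against 335 CPM in IQ3neg_1909B and 911 CPM in IQ3neg_1910B. The fractions overlapped, because IQ3neg_1910B exceeded IQ3pos_1909A, while each 4-mouse pool lay above the 3-mouse pool of its own fraction. Within a number, IQ3pos was 1.41-fold higher among the 3-mouse pools and 1.40-fold among the 4-mouse pools on TMM-scaled CPM, or 2.58-fold and 2.21-fold on deposited CPM. The difference of 0.49 did not pass (limma adjusted p = 0.651), with a 95% interval of -0.75 to 1.73, which spans differences of either sign. Without IQ3neg_1909B it was -0.12, and without IQ3pos_1910A it was -0.08. Krt8-ps, a Krt8 pseudogene with its own row, stood at 8.18 and 9.34 CPM in IQ3pos and 3.10 and 4.16 CPM in IQ3neg, and reads of the gene and the pseudogene may have been split between the rows. As a share of Krt8 reads it held 0.944% in IQ3pos_1909A and 0.464% in IQ3pos_1910A, against 0.925% in IQ3neg_1909B and 0.457% in IQ3neg_1910B. The share was thus alike in libraries of the same library number and differed between the numbers. The numbers differ both in mice pooled and in reads in genes, which cannot be told apart here. The genes nearest to Krt8 in pattern were Stard3nl and Pmpca, a subunit gene of the mitochondrial processing peptidase, at distances of 0.137 and 0.154, with 887 genes within 1.

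Krt18, the type I partner of Krt8, was the most abundant member by CPM in every library but IQ3pos_1910A. It stood at 1559 CPM in IQ3pos_1909A and 1662 CPM in IQ3pos_1910A, against 611 CPM in IQ3neg_1909B and 1420 CPM in IQ3neg_1910B. The IQ3pos libraries were alike and the IQ3neg libraries were not. With TMM scaling the order was lost, since IQ3pos held 1237 and 1230 and lay between 889 in IQ3neg_1909B and 1660 in IQ3neg_1910B. Within a number, Krt18 was 1.39-fold higher in IQ3pos among the 3-mouse pools and 1.35-fold lower among the 4-mouse pools. The difference of 0.02 had a 95% interval of -0.79 to 0.83 (limma adjusted p = 0.981). Its sign depended on the scaling and the libraries, with -0.20 on CPM without the 20 most abundant genes (where the median gene stood at -0.26), -0.07 without IQ3pos_1909A and -0.47 without IQ3neg_1909B. Ppfibp2, a liprin gene, and Sec16a, a gene of endoplasmic reticulum exit sites, came nearest in pattern at 0.0786 and 0.0803, but 1506 genes lay within 1.

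Krt23, a type I keratin of lower level, was the most even of the detected members. It stood at 281 CPM in IQ3pos_1909A and 299 CPM in IQ3pos_1910A, against 143 CPM in IQ3neg_1909B and 206 CPM in IQ3neg_1910B. TMM-scaled values ran from 208 to 241 over the 4 libraries, at 222 ± 1.16 for IQ3pos and 225 ± 23.9 for IQ3neg (SD over 2 libraries). The difference was -0.01 with a 95% interval of -0.64 to 0.62 (limma adjusted p = 0.987), and it was 0.75 on deposited CPM, close to the shift of 0.68 shown by the median gene. Without IQ3neg_1910B it was 0.06. Rab1a, a GTPase gene of vesicle transport, and Drg1, a further GTPase gene, came nearest in pattern at 0.0377 and 0.0411, with 2090 genes within 1.

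Krt20 was almost undetected in these corpus cells. It had 2 reads in IQ3pos_1909A and 0 in IQ3pos_1910A, against 2 reads in IQ3neg_1909B and 0 in IQ3neg_1910B. The limit that 0 reads allow, taken as 3 reads of a library, was 0.0331 CPM in IQ3pos_1909A and 0.0107 CPM in IQ3pos_1910A, against 0.0261 CPM in IQ3neg_1909B and 0.00717 CPM in IQ3neg_1910B. Each library held fewer than 3 reads, with Krt20 at 0.0220 CPM in IQ3pos_1909A and 0.0174 CPM in IQ3neg_1909B. For these libraries of 2 reads, the exact 95% Poisson interval reached up to 0.0796 and 0.0628 CPM. No fold was taken, and no difference was detectable at this depth. Its genomic neighbour Krt23 stood at over 100 CPM in each of the same libraries.

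**Figure D2:**
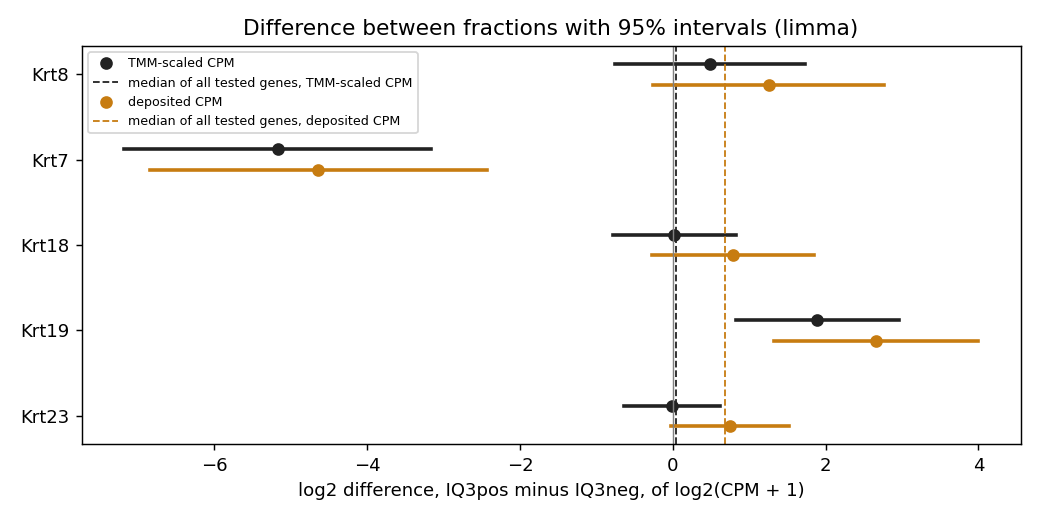
Difference of each tested keratin between the fractions, IQ3pos minus IQ3neg, in log2(CPM + 1), with 95% intervals from limma; black is TMM-scaled and orange is deposited CPM, and dashed lines mark the medians of all 13019 tested genes at 0.04 and 0.68. The Krt7 interval of -7.18 to -3.17 lies below 0 and the Krt19 interval of 0.82 to 2.97 above it, while those of Krt8, Krt18 and Krt23 span 0 with TMM scaling.

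Levels of different genes were set side by side as CPM per kilobase of annotated exon. In IQ3pos_1909A these were 1085 for Krt18, 443 for Krt8, 271 for Krt19, 179 for Krt23 and 0.0203 for Krt7. In IQ3pos_1910A they were 1157 for Krt18, 1028 for Krt8, 414 for Krt19, 191 for Krt23 and 0.294 for Krt7. The order was therefore Krt18, Krt8, Krt19, Krt23, Krt7 in both IQ3pos libraries. In IQ3neg_1909B the level was 425 for Krt18, 171 for Krt8, 91.1 for Krt23, 31.7 for Krt19 and 6.26 for Krt7. In IQ3neg_1910B it was 988 for Krt18, 465 for Krt8, 132 for Krt23, 87.4 for Krt19 and 6.72 for Krt7. Krt19 and Krt23 thus changed places between the fractions in all 4 libraries. Over the libraries of a fraction, the ranges of Krt18 and Krt8 did not overlap in IQ3pos but did so in IQ3neg, where 425 of Krt18 in IQ3neg_1909B was below 465 of Krt8 in IQ3neg_1910B. The ranges of Krt19 and Krt23 did not overlap in either fraction. The union of annotated exons is long for Krt7, at 7049 bases against 1437 to 1958 for the other members, so its level per kilobase is a low estimate.

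**Figure D3:**
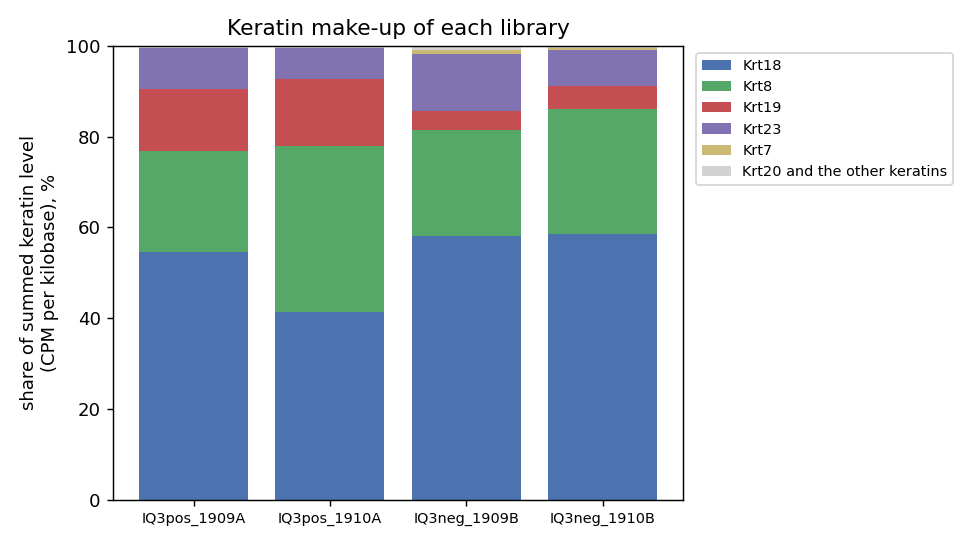
Share of each keratin in the summed keratin level of a library, from CPM per kilobase, in percent; each bar is 1 library. Krt19 holds 13.7% and 14.8% in IQ3pos and 4.33% and 5.18% in IQ3neg, and Krt7 is visible in IQ3neg alone, at 0.854% and 0.398%.

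As shares of the summed level of all keratins per kilobase, Krt18 held 54.7% and 41.3% in IQ3pos_1909A and IQ3pos_1910A, against 58.0% and 58.5% in IQ3neg_1909B and IQ3neg_1910B. Krt8 held 22.3% and 36.7% in IQ3pos and 23.4% and 27.6% in IQ3neg, in the same order of numbers. Krt19 held 13.7% and 14.8% in IQ3pos and 4.33% and 5.18% in IQ3neg, with no overlap. Krt23 held 9.04% and 6.82% in IQ3pos and 12.4% and 7.81% in IQ3neg. Such shares need no composition factor, since every gene of a library carries the same factor.

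Ratios within a library separated the fractions at Krt19 and Krt7. Krt19 per kilobase was 0.250 and 0.358 of Krt18 in IQ3pos_1909A and IQ3pos_1910A, against 0.0746 and 0.0884 in IQ3neg_1909B and IQ3neg_1910B. Of the summed type II members, Krt7 made up 0.00459% and 0.0286% in IQ3pos, against 3.52% and 1.42% in IQ3neg. Krt18 over Krt8 did not separate them: it was 2.45 and 1.12 in IQ3pos and 2.48 and 2.12 in IQ3neg, so IQ3pos_1910A alone stood low. All type I members over all type II members gave 3.47 and 1.71 in IQ3pos and 3.09 and 2.56 in IQ3neg, with means of 2.59 ± 1.24 for IQ3pos and 2.82 ± 0.373 for IQ3neg (SD over 2 libraries). With 2 libraries a fraction, these ratios were not tested.

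**Figure D4:**
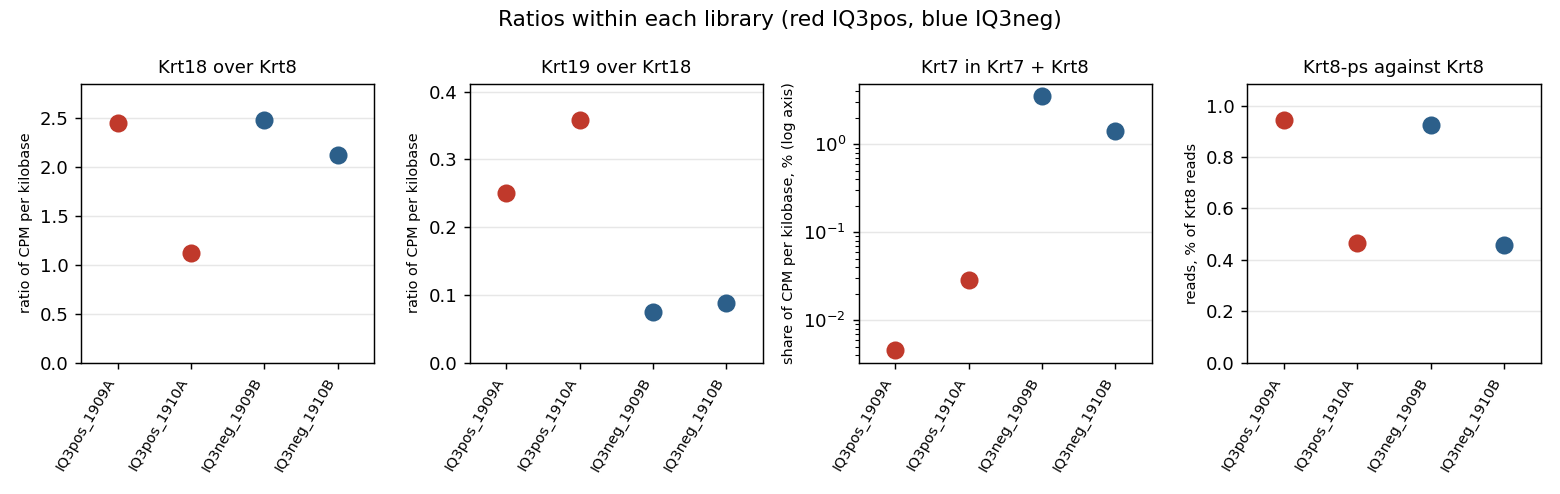
Ratios within each library, 1 point per library, red IQ3pos and blue IQ3neg: Krt18 over Krt8 and Krt19 over Krt18 in CPM per kilobase, the share of Krt7 in Krt7 plus Krt8 in percent on a log axis, and Krt8-ps as a percent of Krt8 reads. Krt19 over Krt18 is 0.250 and 0.358 in IQ3pos and under 0.1 in IQ3neg, while Krt8-ps stands at 0.944% and 0.925% in the 3-mouse pools and at 0.464% and 0.457% in the 4-mouse pools, IQ3pos before IQ3neg.

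The 6 members made up nearly all keratin RNA. The table lists 54 keratin genes, 27 on each chromosome, and the members held 99.5% of the summed keratin CPM in each IQ3pos library, 98.4% in IQ3neg_1909B and 99.2% in IQ3neg_1910B. All keratins together took 0.322% and 0.477% of reads in IQ3pos and 0.121% and 0.277% in IQ3neg. These shares carry the difference in composition between the fractions. On TMM-scaled CPM the 6 members summed to 2547 and 3512 in IQ3pos and to 1735 and 3212 in IQ3neg, so the fractions overlapped. Of the 48 other keratins, 2 reached the filter. Krt10, a keratin known from skin, stood at 12.9 and 11.3 CPM in IQ3pos and 7.05 and 9.11 CPM in IQ3neg. On TMM-scaled CPM it held 10.2 and 8.38 in IQ3pos and 10.3 and 10.7 in IQ3neg, a difference of -0.16 (limma adjusted p = 0.930). Krt222, a keratin-related gene, stood at 0.0441 and 5.46 CPM in IQ3pos and 9.69 and 12.5 CPM in IQ3neg. Both IQ3neg values exceeded both IQ3pos values, with a difference of -2.75 (SE 1.11, limma unadjusted p = 0.0483, adjusted p = 0.308). Among the 46 others, 31 and 42 had a read in IQ3pos_1909A and IQ3pos_1910A, against 13 and 14 in IQ3neg_1909B and IQ3neg_1910B, although IQ3neg_1910B was the deepest library. All genes showed the same order, with 29724 and 30017 above 0 in IQ3pos and 21757 and 21823 in IQ3neg. The 46 other keratins summed to 1.69 and 8.99 CPM in IQ3pos and 2.35 and 1.36 CPM in IQ3neg. The most abundant of them, Krt84, a hair keratin, reached 3.00 CPM in IQ3pos_1910A and was named after its value was seen. The neighbours of Krt7 on chromosome 15, Krt80 and Krt87, stayed at 0.0882 CPM or less in every library.

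**Figure D5:**
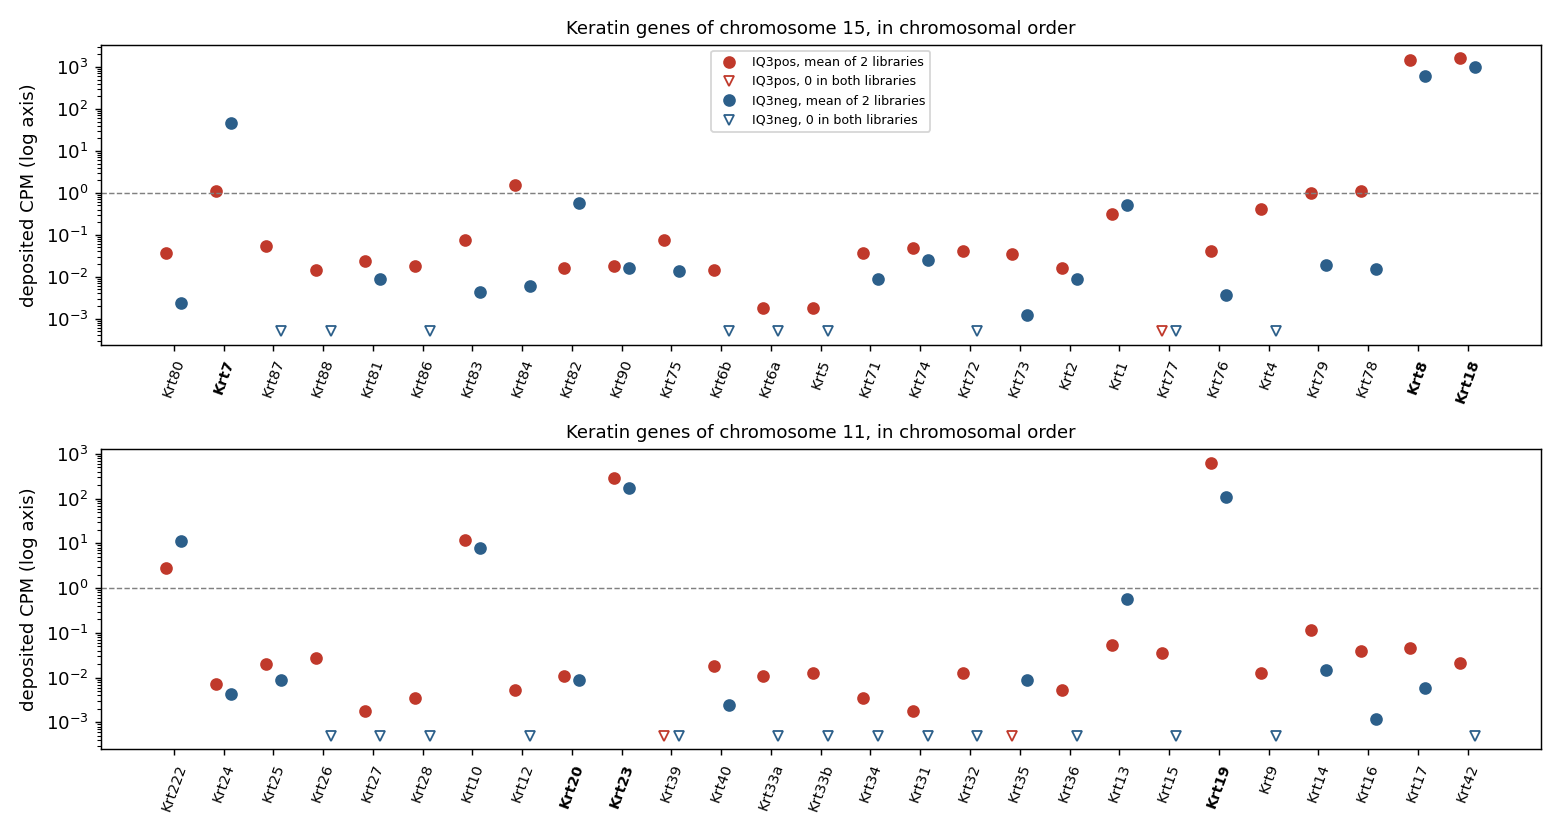
Mean deposited CPM, on a log axis, of the 54 keratin genes in chromosomal order on chromosomes 15 and 11, red IQ3pos and blue IQ3neg, each a mean of 2 libraries; open triangles at the lower edge mark genes at 0 in both libraries of a fraction, the dashed line marks 1 CPM, and bold names are the 6 members. Krt7, Krt8, Krt18, Krt19 and Krt23 stand far above most of their neighbours, and Krt20 does not.

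No gene on the lists of keratin anchors, other intermediate filaments and keratin regulators passed limma's adjusted threshold. Of 18 genes of plakins and desmosomes, which tie keratin filaments to the cell membrane, 12 were tested and 0 passed (1 higher and 1 lower by the unadjusted p), with a median difference of 0.14 against 0.04 for all genes. Dsc2, a desmosomal cadherin, averaged 199 ± 19.7 CPM for IQ3pos and 57.3 ± 24.8 CPM for IQ3neg (SD over 2 libraries), a difference of 1.09 (SE 0.34, limma adjusted p = 0.239). Dsp, encoding desmoplakin, which binds keratins directly, averaged 135 ± 20.6 CPM for IQ3pos and 66.9 ± 26.4 CPM for IQ3neg, with a difference of 0.29 (limma adjusted p = 0.711). Ppl, encoding the plakin periplakin, was the sole gene of these lists lower at an unadjusted p under 0.05. This gene was named after its value was seen. It stood at 0.165 and 2.36 CPM in IQ3pos and at 10.9 and 18.2 CPM in IQ3neg (limma adjusted p = 0.219).

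Of 13 other intermediate filament genes, 9 were tested and 0 passed (2 higher and 0 lower by the unadjusted p), with a median of -0.94. Lmna, encoding lamins A and C of the nuclear envelope, averaged 538 ± 16.1 CPM for IQ3pos and 201 ± 42.9 CPM for IQ3neg (SD over 2 libraries), with a difference of 0.67 (limma adjusted p = 0.270). Lmnb1, encoding lamin B1, averaged 34.0 ± 5.57 CPM for IQ3pos and 0.883 ± 0.573 CPM for IQ3neg, a difference of 3.70 (SE 0.85, limma adjusted p = 0.170). Vim, the vimentin gene of mesenchymal cells, ran from 0.584 to 4.72 CPM over the 4 libraries, and was named after its value was seen. Of 10 regulators of keratins and epithelial identity, 10 were tested and 0 passed (1 higher and 0 lower by the unadjusted p), with a median of 0.23. Klf5, a transcription factor of dividing epithelia, averaged 187 ± 4.58 CPM in IQ3pos and 67.3 ± 36.9 CPM in IQ3neg, a difference of 0.82 (limma adjusted p = 0.360). Klf4, a factor of differentiating epithelia, averaged 106 ± 17.4 CPM in IQ3pos and 20.1 ± 4.45 CPM in IQ3neg, a difference of 1.60 (limma adjusted p = 0.220). On deposited CPM the medians of the 3 lists were 0.89, -0.44 and 0.83, against 0.68 for all genes.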

How the data were processed

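RNA was measured in 4 libraries, 2 of IQ3pos and 2 of IQ3neg cells, grouped by their titles. The authors deposited CPM per gene symbol, and each column sums to 1000000. The submitters' processing notes name STAR 2.7.1a, Subread 2.0.0, featureCounts, edgeR and the build GRCm38, without role or order. The sources used here do not give the annotation, the strand setting or the treatment of multi-mapped reads. Whole reads were recovered from the CPM steps: 100% of values above 0 came within 0.05 of a whole read, for 90714929 to 418401262 reads a library. Reads carry no molecular identifiers, so intervals cover counting error only.

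TMM factors from the recovered reads (edgeR 4.0.16) were 1.26 and 1.35 in IQ3pos_1909A and IQ3pos_1910A and 0.687 and 0.855 in IQ3neg_1909B and IQ3neg_1910B. Differences were tested by limma-trend on log2(TMM-scaled CPM + 1), with limma 3.58.1 in R 4.3.3, over the 13019 genes averaging 1 CPM or more, two-sided, without a block, with 2 residual and 3.90 prior degrees of freedom and Benjamini-Hochberg adjustment over all tested genes at 0.05. Fold changes on this scale understate the change of low genes. Alternatives were other scalings, pseudocounts and filters, the edgeR quasi-likelihood test, the DESeq2 Wald test (DESeq2 1.42.0), a block for the library number and each library left out. The tests were also run on simulated data with the same fixed spread for every gene, which was not estimated from these pools.

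Of 55335 rows, 53647 match a symbol of GENCODE vM21 on GRCm38, which gave coordinates, 1-based, and exon lengths. Genes named by rule are the 6 members, the tested other keratins and the 2 nearest patterns to each member by Euclidean distance. From each list of partners, the rule names those past the threshold or else the 2 of highest mean CPM. Cell type markers given singly, such as Clps, Pga5, Muc6 and Cela1, were named outside this rule. So were Iqgap3, Gm671, Krt8-ps, Krt80, Krt87, Krt84, Ppl and Vim. Members and lists were chosen with earlier results of these data known.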

Additional observations from a re-analysis of the deposited data

How the results depend on the processing

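Krt7 kept its lower and Krt19 its higher sign under all 14 alternatives. The DESeq2 Wald test moved both past the threshold (Krt7 -6.23, adjusted p = 4.78e-07; Krt19 1.83, adjusted p = 0.000669). So did a replicate block for the library number, with differences of -5.17 (adjusted p = 0.0218) and 1.89 (adjusted p = 0.00693), on 1 residual degree of freedom, in a fit that called 246 of all 13019 genes higher and 157 lower. With the block Krt8 stayed at 0.49 with an SE of 0.16 (limma unadjusted p = 0.0137), and did not pass (adjusted p = 0.156). The block fit counted 1266 of all genes higher at an unadjusted p under 0.05. Over the alternatives the adjusted p ran from 4.78e-07 to 0.416 for Krt7 and from 0.000669 to 0.566 for Krt19. The labels do not say that the numbers pair the libraries; deviations from the fraction means correlated at 0.140 across genes between libraries of the same number. Krt18 turned to -0.20 without the 20 most abundant genes, -0.11 in edgeR and -0.029 in DESeq2, and Krt23 to 0.75 on deposited CPM. With 1 library left out, differences ran from -5.64 to -4.60 for Krt7, from -0.12 to 1.02 for Krt8, from -0.47 to 0.44 for Krt18, from 1.28 to 2.43 for Krt19 and from -0.16 to 0.062 for Krt23. The cause of these changes was not tested.

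Over all genes, limma with TMM called 6 higher and 24 lower. The counts were 0 and 0 on deposited CPM, with a pseudocount of 0.1, with no filter and without any 1 library; 16 and 33 with DESeq2 size factors; 2 and 9 without the 20 most abundant genes; 4 and 13 with a pseudocount of 0.5; 0 and 2 with a minimum of 0.1 CPM; 9 and 36 in edgeR; 710 and 1081 in DESeq2; and more with the replicate block, as given above. At an unadjusted p under 0.05, limma counted 994 higher and 1083 lower with TMM, 2373 and 648 on deposited CPM, 971 and 1197 with a pseudocount of 0.1, 1537 and 1171 with no filter, and 410 to 1025 higher and 823 to 1314 lower with 1 library left out. By the longest transcript, Krt7 in IQ3neg stood at 11.2 CPM per kilobase in place of 6.49, and by CPM the type I to type II ratio was 2.03 in IQ3pos and 2.00 in IQ3neg, in place of 2.59 and 2.82, so the order of the means turned. With 2 libraries a fraction, a missed threshold does not show that levels were equal.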
